A study of Mus musculus with 18 samples.

Results

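The mitochondrially encoded genes are the genes carried by the mitochondrial chromosome itself. They were taken as the rows of the counts table that lie on the mitochondrial chromosome, all of which have a symbol that begins with mt-. There were 37 such genes among 55385 genes in the table, with 13 protein genes, 2 ribosomal RNA (rRNA) genes and 22 transfer RNA (tRNA) genes. Polyadenylated RNA from the livers of mice aged 17.1 to 18.0 weeks was sequenced in 18 libraries. They form 3 groups of 6 libraries, with 3 from males and 3 from females in each. Dp16-2xIFNRs mice carry the same duplication as Dp16 mice, with the dosage of the interferon receptor genes inside it set back to that of wild-type. Dp16 mice carry an extra copy of a segment of mouse chromosome 16 and serve as a model of trisomy 21. Wild-type mice were C57BL/6J and carry no duplication. None of the groups was treated, and the duplication is present in all cells, so no promoter or recombinase limits it to a cell type. The mitochondrial chromosome is not part of the duplicated segment. The comparisons ask whether the level of the mitochondrial transcripts differs with the duplication and with the dosage of the interferon receptors.

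Mitochondrial DNA is copied and transcribed inside the organelle, apart from the nuclear chromosomes. Each strand is transcribed as a long precursor, and most protein and rRNA genes are set off by tRNA genes whose excision frees the RNAs between them. The protein genes encode core subunits of 4 of the complexes of oxidative phosphorylation, while all other subunits, the polymerase and the processing enzymes are made from nuclear genes. Hepatocytes are rich in mitochondria and use them for fatty acid oxidation, the urea cycle and the making of glucose. In bulk tissue, fewer cells of a type, fewer mitochondria per cell and less RNA per mitochondrion cannot be told apart.

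In the annotation of build GRCm38 (GENCODE M21), 12 of the 13 protein genes lie on the plus strand and mt-Nd6 alone lies on the minus strand. Both rRNA genes and 14 tRNA genes lie on the plus strand, and 8 tRNA genes on the minus strand. The protein genes divide into 7 subunits of complex I (mt-Nd1 to mt-Nd6 and mt-Nd4l), 1 subunit of complex III (mt-Cytb), 3 subunits of complex IV (mt-Co1 to mt-Co3) and 2 subunits of complex V (mt-Atp6 and mt-Atp8). None of the genes has an intron. Of the annotated protein genes, 8 end in TAA, 2 end in TAG, and 3 end in a lone T after the last whole codon. It is textbook knowledge that such a T becomes a stop codon when the poly-A tail is added, so for these genes the tail that the library method captures also completes the reading frame. The last 30 bases of the 3 genes with a lone T are shown with those of 3 genes with a full stop codon, in capitals, as the plus strand for all but mt-Nd6.

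mt-Cytb: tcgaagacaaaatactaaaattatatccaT
mt-Co3: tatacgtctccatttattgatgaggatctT
mt-Nd4: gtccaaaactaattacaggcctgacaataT
mt-Co1: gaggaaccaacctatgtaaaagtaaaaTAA
mt-Co2: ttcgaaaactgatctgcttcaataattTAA
mt-Nd6: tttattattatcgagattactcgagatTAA

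Mature tRNAs are short and carry no poly-A tail, and the 22 tRNA genes together took 276 to 1020 counts per library. The 4 genes mt-Ti, mt-Tw, mt-Tm and mt-Tt, for isoleucine, tryptophan, methionine and threonine, held 87.1% of them. They are shown in full because the tRNA results turn on them, with the anticodon in capitals, as found by searching for its letters in the middle of each gene. In GRCm38, on the plus strand, mt-Ti lies at chrM:3706-3774, mt-Tm at chrM:3845-3913, mt-Tw at chrM:4950-5016 and mt-Tt at chrM:15289-15355.

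mt-Ti: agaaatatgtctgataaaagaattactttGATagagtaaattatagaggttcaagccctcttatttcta
mt-Tm: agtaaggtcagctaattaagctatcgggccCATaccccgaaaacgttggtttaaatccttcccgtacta
mt-Tw: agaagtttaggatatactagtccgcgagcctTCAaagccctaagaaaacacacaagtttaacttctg
mt-Tt: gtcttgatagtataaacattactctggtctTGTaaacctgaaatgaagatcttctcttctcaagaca

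All 4 of these genes border a highly expressed protein gene. mt-Ti overlaps the end of mt-Nd1 by 2 bases, mt-Tm ends where mt-Nd2 (chrM:3914-4951) begins, mt-Tw overlaps the end of mt-Nd2 by 2 bases, and mt-Tt begins right after mt-Cytb (chrM:14145-15288). Whether their counts come from tRNAs or from longer RNAs that run into them was not tested.

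The levels of the 37 genes spanned a wide range (RPKM, in which the authors scaled the counts to gene length and to the library's total). Of the protein genes, mt-Co1, the catalytic core of cytochrome c oxidase, had the highest median over the 18 libraries, 13290 RPKM, with a range of 7164 to 16930. By total counts it ranked 3 among all genes in the table. mt-Cytb, the core of complex III, followed with a median of 10360 RPKM, then mt-Nd2 with 9316 and mt-Nd1 with 9035, both membrane subunits of complex I. mt-Nd4 and mt-Nd5, also complex I subunits, had medians of 2872 and 2670 RPKM. The ranges of mt-Cytb, mt-Nd1 and mt-Nd2 over libraries overlapped one another, as did those of mt-Nd4 and mt-Nd5.

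The other protein genes were far lower. mt-Co2, which holds the site where cytochrome c delivers electrons, had a median of 212 RPKM, and mt-Co3, the remaining complex IV subunit, had 183 RPKM. mt-Atp6, which forms part of the proton path of ATP synthase, had 141 RPKM, and its partner subunit mt-Atp8 had 57.5 RPKM. mt-Nd6, the complex I subunit on the minus strand, had 79.2 RPKM. mt-Nd3 and mt-Nd4l, small complex I subunits, had 31.4 and 20.2 RPKM. The lowest value of mt-Nd5, 1488 RPKM, lay above the highest value of mt-Co3, 510 RPKM, so the 6 highest protein genes were separate from the other 7 in every library. Reads could be divided between overlapping genes: mt-Atp8 and mt-Atp6 share 43 bases, mt-Nd4l and mt-Nd4 share 7, and mt-Nd5 and mt-Nd6, on opposite strands, share 14.

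The rRNAs, which form the small (mt-Rnr1, 12S) and large (mt-Rnr2, 16S) subunits of the mitochondrial ribosome, had medians of 1725 and 1244 RPKM. Their ranges, 542 to 3739 and 369 to 2350 RPKM, overlapped. Library preparation selected for poly-A tails, so these values describe the rRNA that was captured and not all rRNA in the tissue.

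Of the tRNA genes, mt-Ti had a median of 42.4 RPKM, mt-Tw 30.7, mt-Tm 28.5 and mt-Tt 25.2. The ranges of these 4 genes overlapped. mt-Tp and mt-Te, the tRNAs for proline and glutamate on the minus strand, had 8.56 and 3.81 RPKM, and mt-Td, for aspartate, had 2.35. The genes mt-Tf, mt-Tn, mt-Tc, mt-Tk and mt-Ts2 had 0 counts in all 18 libraries. A count of 0 allows up to 3 counts of the summed total of 850202623, a share of 3.53e-07 percent, which covers counting error only since PCR copies were not marked by molecular identifiers. mt-Tq summed to 118 counts over all libraries, mt-Tl1 to 62, mt-Tv to 40, mt-Ts1 to 22 and mt-Ty to 12. mt-Th and mt-Tl2 summed to 6 counts each, and mt-Tg and mt-Tr to 1 count each. All 19 counts of mt-Ta came from library 1 of the Dp16-2xIFNRs group. The 10 tRNA genes on the plus strand outside the stretch described next held 88.3% of all tRNA counts, and the 7 on the minus strand there held 9.71%.

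**Figure D1:**
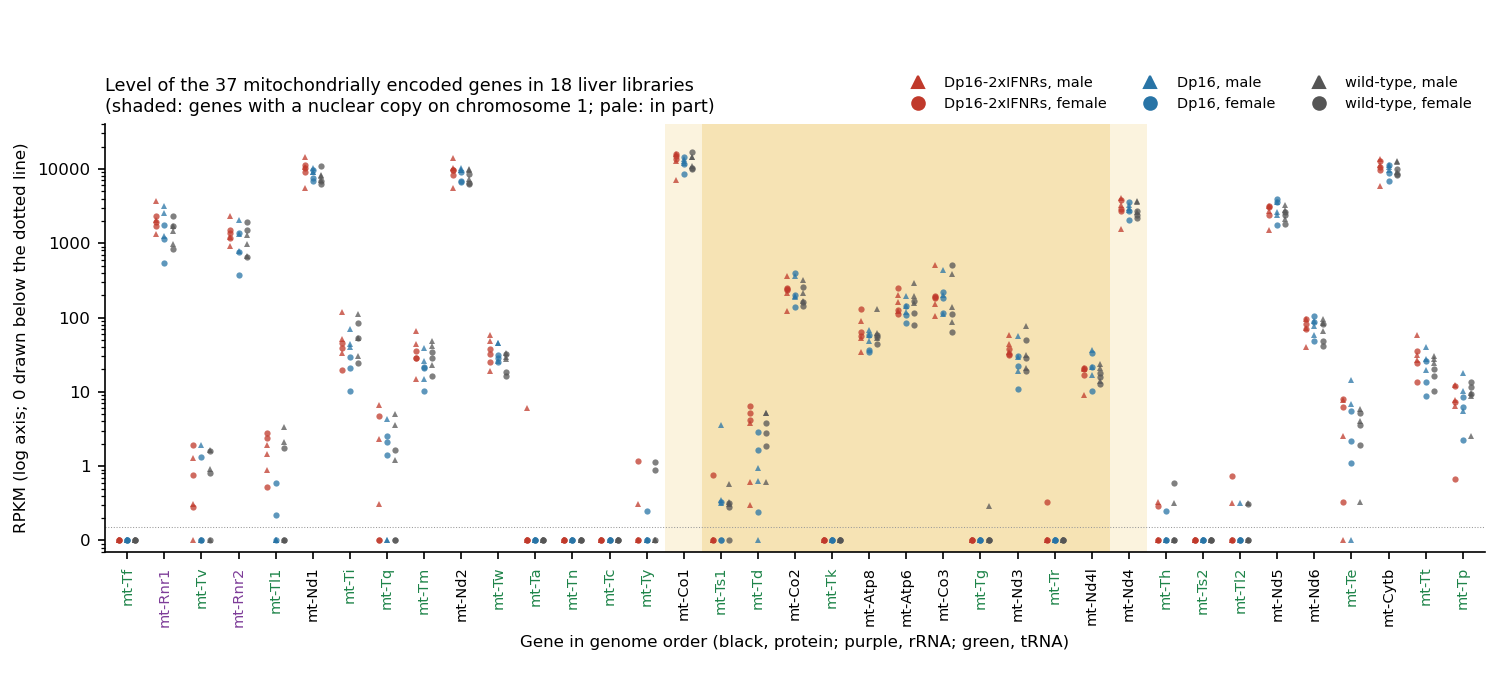
RPKM (log axis) of the 37 mitochondrially encoded genes in genome order in 18 liver libraries, 1 point per library, coloured by genotype with triangles for males and circles for females. Shading marks genes in the stretch spanned by the nuclear copies on chromosome 1, paler where only part of the gene lies in it. The 6 protein genes inside the shaded stretch have medians between 20.2 and 212 RPKM, while mt-Co1 and mt-Cytb have 13290 and 10360, and 5 tRNA genes sit at 0 throughout.

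Part of the mitochondrial chromosome has a near identical copy in the nuclear reference genome, and reads from that stretch could be assigned to either. On chromosome 1, minus strand, between 24611535 and 24616197 of GRCm38, 7 annotated pseudogenes match parts of chrM:6390-11042 base for base or nearly so. Gm28661 matched mt-Co2, Gm28437 matched mt-Co3, Gm10925 matched mt-Atp6 and Gm10222 matched mt-Nd4l, each with 100% identity over all of the copy. Gm28438 matched mt-Nd3 with 1 substitution, T3C, counted from the first base of mt-Nd3. Gm28439 matched 63.6% of mt-Nd4, and Gm29216 matched the last 31.3% of mt-Co1. mt-Atp8 also lies in this stretch, and no pseudogene is annotated for it there. The bases between the pseudogenes, with most of mt-Atp8 and of the 5 tRNA genes of the stretch, were not compared. The first bases of 3 pairs are shown because they are what the aligner had to tell apart, with the substituted base in capitals. For mt-Nd3 they are chrM:9459-9491, plus strand, and for Gm28438 1:24613087-24613119, minus strand.

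mt-Nd3: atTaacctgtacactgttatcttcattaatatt
Gm28438: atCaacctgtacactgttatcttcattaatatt
mt-Nd4l: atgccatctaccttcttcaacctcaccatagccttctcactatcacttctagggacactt
Gm10222: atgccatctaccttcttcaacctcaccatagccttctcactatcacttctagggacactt
mt-Co2: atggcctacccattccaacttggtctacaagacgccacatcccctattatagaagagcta
Gm28661: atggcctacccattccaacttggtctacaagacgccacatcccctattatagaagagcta

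The counts of these genes were divided with their nuclear copies in shares that moved from library to library. Of the counts of mt-Co3 and Gm28437 together, the copy took 37.4% to 82.5% in Dp16-2xIFNRs livers (median 54.2%), 24.3% to 64.04% in Dp16 livers (median 32.7%) and 46.6% to 88.8% in wild-type livers (median 74.8%). The copy of mt-Nd4l took 27.7% to 85.7% over the 18 libraries, that of mt-Atp6 49.0% to 85.3%, that of mt-Nd3 48.6% to 83.5% and that of mt-Co2 33% to 62.3%. For the genes copied only in part the copy took little: 0.649% to 2.70% for mt-Nd4 and 0.125% to 1.10% for mt-Co1. These shares are over the whole gene and not over its copied part. The 3 genotypes overlapped for all 7 pairs.

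The 6 protein genes that lie wholly in the copied stretch are also the 6 with the widest spread. Their coefficient of variation within groups was 41.5% to 79.4%, against 22.3% to 29.2% for the 5 protein genes outside the stretch and 24.5% to 26.6% for mt-Nd4 and mt-Co1. Together those 6 genes held 0.786% of all counts of the mitochondrial protein genes. Per kilobase, mt-Co2 reached 1.80% of mt-Co1 by its own counts and 3.42% with the counts of its copy added, and mt-Co3 reached 1.67% and 4.57%. The sources used here do not say whether reads that match both places were placed once, split or dropped. The levels of these 6 genes relative to the others are therefore uncertain. Reads from the copied parts of mt-Nd4 and of mt-Co1, the reference here, could be lost in the same way. How much this lowers their levels was not measured.

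**Figure D2:**
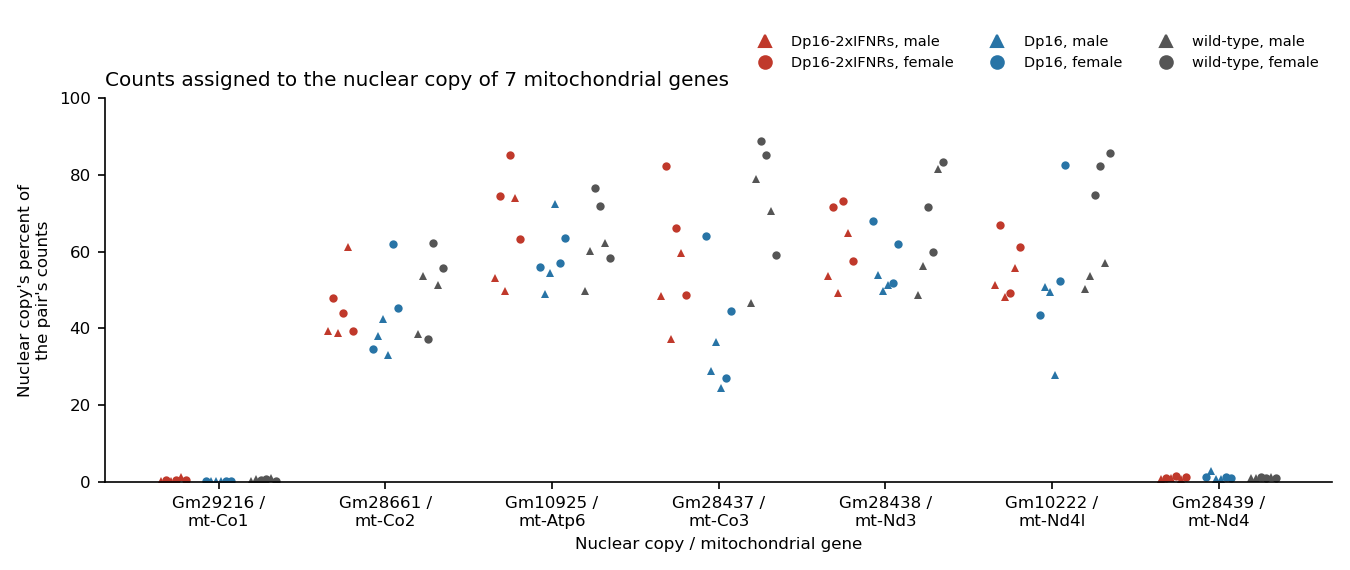
Counts of each nuclear copy as a percent of the counts of the copy and its mitochondrial gene together, 1 point per library, coloured by genotype with triangles for males and circles for females. The 5 pairs copied in full or nearly so range from 24.3% to 88.8%, and the 2 pairs copied in part stay at or below 2.70%.

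Total counts per library ran from 38236222 to 59923315, and the TMM scaling factors from 0.803 in Dp16 library 4 to 1.34 in Dp16 library 5. Markers of hepatocytes summed to 81370 to 137700 CPM (counts scaled to the library's total and its TMM factor), and the markers of brown fat and muscle, tissues rich in mitochondria, to 0 to 9.61 CPM, with 2 of those 5 markers at 0 in all libraries. Neat1, a nuclear RNA, measured 225 CPM in Dp16 library 5 and 1.55 to 22.9 CPM in the other 17 libraries.

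As a share of all counts, the mitochondrial protein genes took 3.397% to 8.11% in Dp16-2xIFNRs livers (median 6.42%), 4.17% to 6.55% in Dp16 livers (median 6.03%) and 4.56% to 6.62% in wild-type livers (median 5.76%). The means were 6.22% ± 1.59, 5.74% ± 0.886 and 5.65% ± 1.04 (SD, n = 6 each), and the largest difference between 2 genotypes, 0.575 percentage points, was below the pooled SD within groups of 1.21. That difference, Dp16-2xIFNRs minus wild-type, ran from 0.198 to 1.14 when 1 library was left out. It was -0.11 in males alone and 1.26 in females alone, with 3 libraries per group in each. The last value is above the pooled SD, but that SD was taken over both sexes and not over females alone. Dp16-2xIFNRs minus Dp16 was -0.183 in males alone and 1.15 in females alone. The rRNA share was 0.432% ± 0.158 in Dp16-2xIFNRs livers, 0.341% ± 0.186 in Dp16 livers and 0.329% ± 0.129 in wild-type livers (SD, n = 6 each). The tRNA share was 0.00121% ± 0.000572 in Dp16-2xIFNRs livers, 0.000902% ± 0.000326 in Dp16 livers and 0.00110% ± 0.000342 in wild-type livers (SD, n = 6 each). All groups overlapped in each of the 3 classes.

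Single libraries set the extremes in many genes at once. Dp16-2xIFNRs library 5 had the highest CPM of the 18 libraries in 7 of the 13 protein genes, and in both rRNAs. Dp16-2xIFNRs library 3, of the same genotype and sex, had the lowest CPM in 7 protein genes. Dp16 library 5 had the lowest in 5 protein genes and in both rRNAs, beside its high Neat1 and its high scaling factor, whose part in these values was not tested. Dp16 library 4, with the lowest scaling factor, was among the 3 highest in 10 of the 13 protein genes. There the protein genes took 6.305% of the counts before the factor was applied and 7.86% after.

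**Figure D3:**
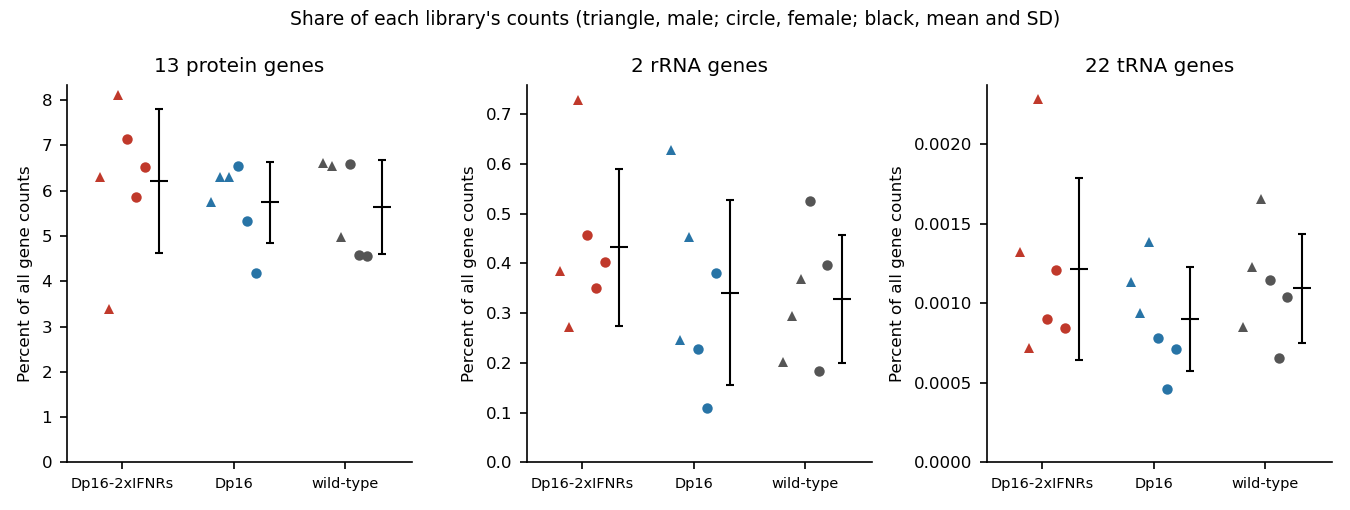
Percent of all gene counts taken by the mitochondrial protein, rRNA and tRNA genes in each library, by genotype, with the mean and SD of 6 libraries in black and triangles for males and circles for females. The 3 genotypes overlap in each panel, and Dp16-2xIFNRs library 5 is the highest point in all 3, at 8.11%, 0.729% and 0.00228%.

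Of the 37 genes, 22 passed the filter on low counts and were tested, namely all 13 protein genes, both rRNA genes and 7 tRNA genes, while 15 tRNA genes did not pass. In the edgeR quasi-likelihood fit over all 15208 genes kept, with sex as a term, none of the 22 passed an adjusted p of 0.05 in any comparison of genotypes.

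In Dp16-2xIFNRs livers against Dp16 livers, which differ in the dosage of the interferon receptors, 0 of 22 genes were called, and 0% of all genes tested were. At an unadjusted p under 0.05 there was 1 of the 22, mt-Tm, against 9.32% of all genes. DESeq2 called 0 of the 22, against 0.04603% of all genes, with 2 at an unadjusted p under 0.05, against 11.04% of all genes. limma-voom called 0, against 0% of all genes, with 1 at an unadjusted p under 0.05, against 11.1%. mt-Tm had 50 to 201 counts in Dp16-2xIFNRs livers (median 105) and 43 to 121 in Dp16 livers (median 70), ranges that overlap. Its log2 fold change was 0.81 ± 0.37 (SE), with an unadjusted p of 0.0418 and an adjusted p of 0.532 in edgeR. The log2 fold changes of the protein genes had a median of 0.24, with 11 of 13 above 0, against a median of -0.02 over all genes tested, of which 48.1% were above 0.

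The protein genes showed the range behind that median. mt-Co1 measured 11640 to 27600 CPM in Dp16-2xIFNRs livers (median 22280) and 12600 to 26340 CPM in Dp16 livers (median 19240), so that nearly the whole range was shared. Its fold change was 1.18 with an unadjusted 95% interval of 0.865 to 1.60. mt-Nd1 measured 5554 to 15450 CPM in Dp16-2xIFNRs livers (median 10350) and 4925 to 12160 CPM in Dp16 livers (median 8252), with a fold of 1.26 and an interval of 0.912 to 1.74. mt-Atp8 had the smallest p of the protein genes, with a log2 fold change of 0.62 ± 0.33 (SE) and an adjusted p of 0.555 in edgeR. mt-Nd5 and mt-Nd4l had values below 0, at -0.0040 and -0.27. Both rRNAs were above 0, mt-Rnr1 at 0.44 ± 0.39 and mt-Rnr2 at 0.43 ± 0.40 (log2, SE).

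The median log2 fold change of the protein genes in this comparison was -0.05 in males alone and 0.53 in females alone. No mitochondrial gene was called in either sex, and the difference between these medians was not tested.

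In Dp16-2xIFNRs livers against wild-type livers, 0 of 22 genes were called, against 0.0986% of all genes tested, and 0 of 22 had an unadjusted p under 0.05 in edgeR, against 8.66% of all genes. DESeq2 also called 0, against 0.835% of all genes, with 0 at an unadjusted p under 0.05, against 10.3%. limma-voom gave 0 in both counts, against 0.125% and 9.01% of all genes. All 13 protein genes had a log2 fold change above 0, with a median of 0.19 and a range of 0.0031 to 0.44. Over all genes tested, 47.4% were above 0. Once the counts of the nuclear copies were added, mt-Co3 had -0.32, mt-Nd3 -0.59 and mt-Nd4l -0.46, so the signs depend on the way of counting. The protein genes share long precursors and the scaling factor of each library, so their signs are not independent in any comparison. mt-Nd1 had the largest value and the smallest p: it measured 5554 to 15450 CPM in Dp16-2xIFNRs livers and 5404 to 10170 CPM in wild-type livers (medians 10350 and 7411), with a fold of 1.36, an interval of 0.983 to 1.88 and an adjusted p of 0.598 in edgeR. The groups overlap over most of their range. The median of the protein genes was -0.03 in males alone and 0.41 in females alone. mt-Rnr1 had a log2 fold change of 0.54 ± 0.39 and mt-Rnr2 of 0.31 ± 0.39 (SE). The tRNA genes lay between -0.28 for mt-Ti and 0.63 for mt-Tt.

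In Dp16 livers against wild-type livers, 0 of 22 genes were called, against 0.0395% of all genes tested, and 0 of 22 had an unadjusted p under 0.05 in edgeR, against 4.87% of all genes. DESeq2 called 0, against 0.473% of all genes, with 2 at an unadjusted p under 0.05, against 6.23%. limma-voom called 0, against 0.0723%, with 1 at an unadjusted p under 0.05, against 6.36%. The protein genes were split, with 6 above and 7 below 0, and their median log2 fold change was -0.02. mt-Co1 measured 12600 to 26340 CPM in Dp16 livers (median 19240) and 14100 to 25530 CPM in wild-type livers (median 19830), with a fold of 0.932 and an interval of 0.685 to 1.27. mt-Cytb had a fold of 0.936 with an interval of 0.703 to 1.25, and mt-Nd5 a fold of 1.14 with an interval of 0.858 to 1.53.

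The intervals show how large a change the data could still hold. For mt-Co1, mt-Cytb, mt-Nd2, mt-Nd4 and mt-Nd5 they stay within 0.685 and 1.70 in all 3 comparisons of genotypes. They are wider for the genes of the copied stretch, with mt-Co3 in Dp16 against wild-type livers between 0.414 and 2.05. They are widest for the tRNAs with few counts: mt-Td had 0 to 9 counts in Dp16 livers and 2 to 18 in wild-type livers, and a log2 interval of -3.78 to 0.0035.

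**Figure D4:**
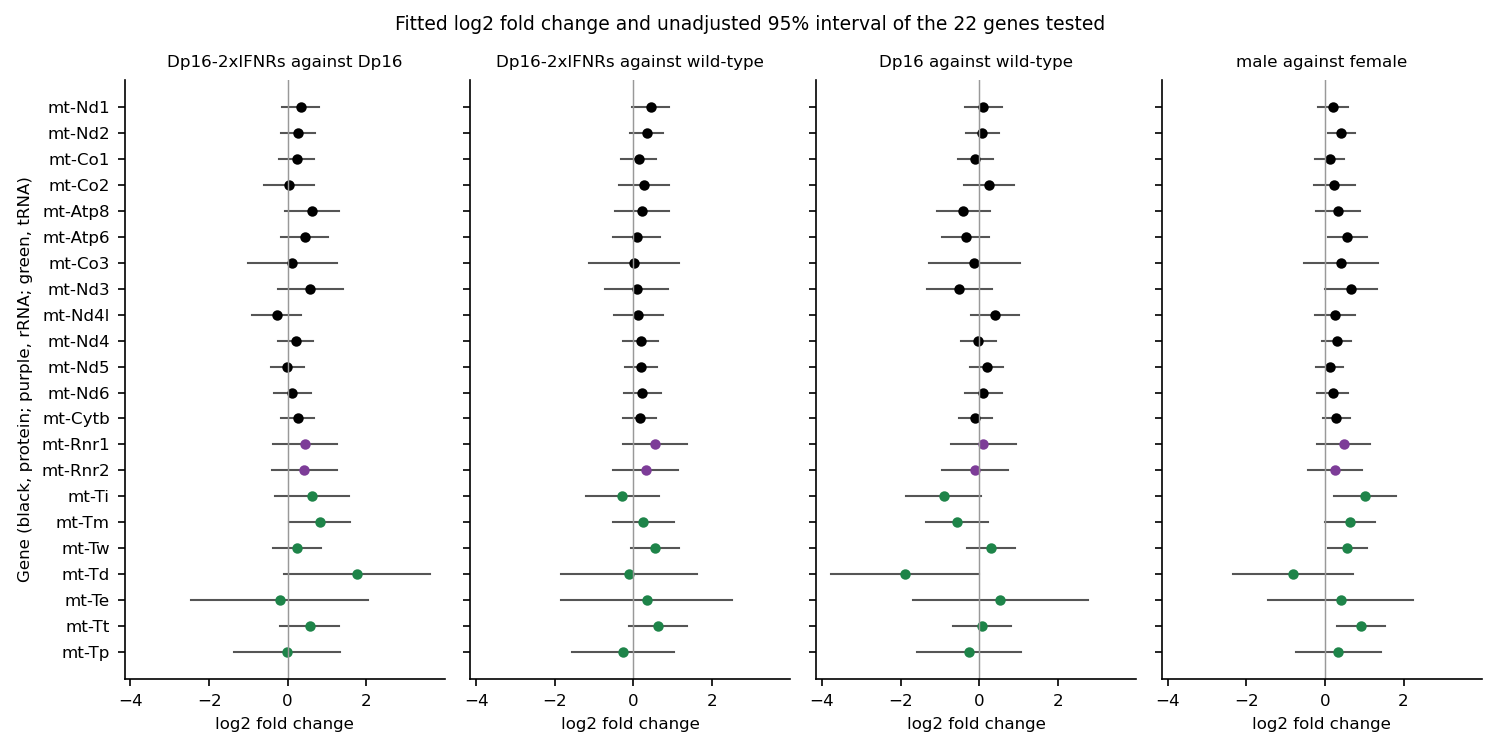
Fitted log2 fold change (points) with its unadjusted 95% interval (lines) for the 22 mitochondrial genes tested, in Dp16-2xIFNRs against Dp16, Dp16-2xIFNRs against wild-type, Dp16 against wild-type, and male against female livers; black marks protein genes, purple rRNA genes and green tRNA genes. Most intervals cross 0 in each panel, and the widest belong to mt-Td and mt-Te.

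Adding the counts of each nuclear copy to its mitochondrial gene, an alternative chosen after seeing the data, left the count of called genes at 0 in every comparison. It moved single values of the copied genes. mt-Co3 in Dp16 against wild-type livers had a log2 fold change of -1.18 with its copy and -0.12 without it, and mt-Nd3 had -1.41 with its copy and -0.50 without it. In Dp16-2xIFNRs against wild-type livers mt-Nd3 had -0.59 with its copy and 0.08 without it, mt-Nd4l -0.46 and 0.12, and mt-Co3 -0.32 and 0.0031. The signs of these genes differed between these ways of counting. Tested by themselves, none of the 7 copies was called between genotypes, where 0% to 0.0986% of all genes were. The smallest p was that of Gm28437, the copy of mt-Co3, in Dp16 against wild-type livers. It had 1971 to 13730 counts in Dp16 livers and 2828 to 35060 in wild-type livers, a log2 fold change of -2.11 ± 0.67 (SE) and an adjusted p of 0.559 in edgeR.

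The protein-coding counts were also divided by complex. Genes of complex I took 46.4% ± 2.07 of the mitochondrial protein counts in Dp16-2xIFNRs livers, 47.0% ± 1.13 in Dp16 livers and 43.5% ± 0.940 in wild-type livers (SD, n = 6 each). The Dp16 libraries ran from 45.8% to 48.6% and the wild-type libraries from 42.2% to 44.4%, without overlap, while the Dp16-2xIFNRs libraries ran from 43.8% to 49.4% and overlapped both. Within Dp16-2xIFNRs, the 3 males had 46.8% to 49.4% and the 3 females 43.8% to 45.6%. This share was singled out after its values were seen and has no test. Complex IV took 33.8% ± 2.21, 33.5% ± 1.17 and 35.6% ± 2.38 in Dp16-2xIFNRs, Dp16 and wild-type livers, and complex III 19.6% ± 0.716, 19.4% ± 0.551 and 20.7% ± 1.68 (SD, n = 6 each), with overlap between all groups. Nearly all of the complex IV share was mt-Co1, with means of 33.25%, 32.9% and 35.05% in the same order of groups. Complex V, which lies in the copied stretch, took 0.121% to 0.419% over all libraries. The same stretch holds mt-Co2 and mt-Co3 of complex IV and mt-Nd3 and mt-Nd4l of complex I, whose levels are uncertain. As shares of a fixed sum, these values cannot tell a rise of one complex from a fall of another.

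A pair of ratios within each library does not depend on scaling. The counts of mt-Rnr2 were 0.974 to 1.18 times those of mt-Rnr1 in Dp16-2xIFNRs livers (median 1.11), 0.879 to 1.28 times in Dp16 livers (median 1.10) and 1.08 to 1.46 times in wild-type livers (median 1.27). The wild-type libraries were the highest on average, and the groups overlapped. The difference of the mean log2 ratio was -0.20 between Dp16-2xIFNRs and wild-type livers, with a two-sided exact permutation p of 0.0325, and -0.21 between Dp16 and wild-type livers, with an exact p of 0.0563. Adjusted over the 6 exact tests of ratios, both had p = 0.169 and did not pass. Between Dp16-2xIFNRs and Dp16 livers the difference was 0.0077 (exact permutation p = 0.929).

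The rRNA ratio also varied with sex. In wild-type livers it was 1.08, 1.14 and 1.24 in males and 1.30, 1.34 and 1.46 in females. In Dp16 livers it was 0.879, 1.05 and 1.09 in males and 1.12, 1.13 and 1.28 in females, while in Dp16-2xIFNRs livers males had 0.974, 1.04 and 1.15 and females 1.08, 1.13 and 1.18. Every male lay below every female in wild-type and in Dp16 livers, and the sexes overlapped in Dp16-2xIFNRs livers. When genotypes were permuted within sex, the same differences of -0.20 and -0.21 had exact p values of 0.015 and 0.01, both 0.045 after adjustment over the 6 tests, which passes. The call of this ratio therefore depends on whether sex is held fixed. The descriptions of 3 Dp16-2xIFNRs and 3 wild-type libraries share a number whose meaning the labels do not give, and in these 3 pairs the ratio was 0.974, 1.15 and 1.08 in Dp16-2xIFNRs livers, against 1.14, 1.24 and 1.34 in wild-type livers.

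The other ratio set mt-Nd6, from the minus strand, against mt-Cytb, from the plus strand. Both are counts of RNA captured by its poly-A tail, and whether both RNAs were captured equally was not tested. mt-Nd6 had 0.288% to 0.402% of the counts of mt-Cytb in Dp16-2xIFNRs livers, 0.249% to 0.438% in Dp16 livers and 0.227% to 0.366% in wild-type livers. The groups overlapped, and none of the 3 differences passed (two-sided exact permutation, smallest adjusted p = 0.364).

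**Figure D5:**
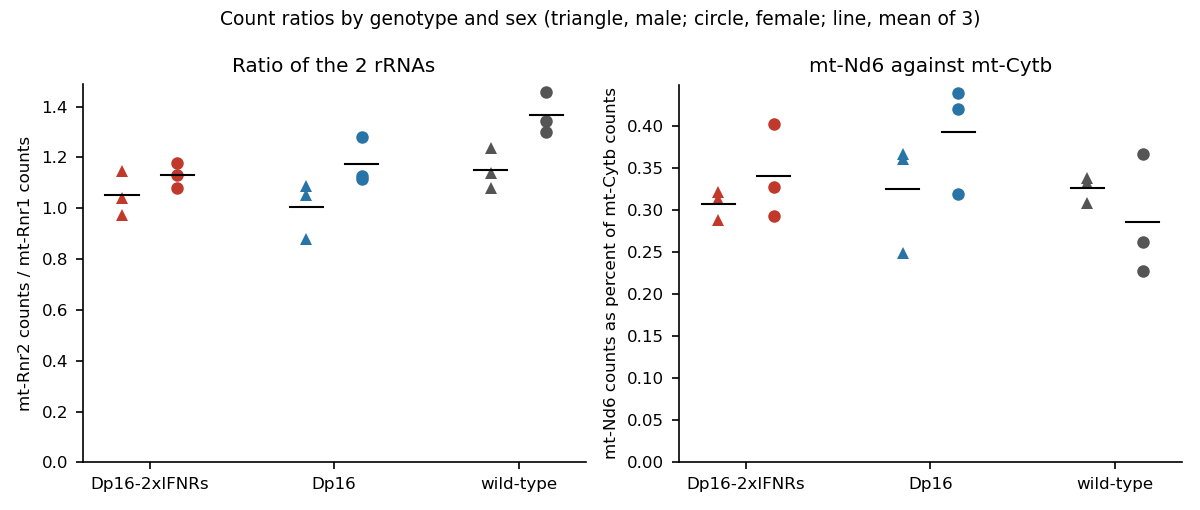
Counts of mt-Rnr2 over counts of mt-Rnr1 (left) and counts of mt-Nd6 as a percent of those of mt-Cytb (right), 1 point per library by genotype and sex, with the mean of 3 libraries as a line. In the left panel the wild-type females have the 3 highest values, 1.30 to 1.46, while the right panel shows overlap between all groups.

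Males and females were compared over the 3 genotypes together, 9 against 9. No mitochondrial gene was called of the 22, against 6.56% of all genes tested, and 5 of 22 had an unadjusted p under 0.05 in edgeR, against 18.8% of all genes. DESeq2 called 1 of the 22, against 10.1% of all genes, with 7 at an unadjusted p under 0.05, against 21.5%. limma-voom called 0, against 7.15%, with 4 at an unadjusted p under 0.05, against 20.45%. All 13 protein genes had a log2 fold change above 0 in males against females, with a median of 0.29, where 47.6% of all genes were above 0. With the counts of the nuclear copies added, mt-Co3 had -0.07 and mt-Nd4l -0.48, so this depends on the way of counting. The 5 genes with an unadjusted p under 0.05 in edgeR were mt-Tt, mt-Ti, mt-Nd2, mt-Atp6 and mt-Tw, all with values above 0. With its copy added, mt-Atp6 had 0.27 (adjusted p = 0.736 in edgeR), against 0.57 without it.

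Single markers of cell types also differed between the sexes. The median log2 fold change of the erythroid list was 0.22, with 4 of 5 above 0. That of the hepatocyte list was 0.06, with 5 of 8 above 0. Alas2, which starts haem synthesis in red cell precursors, rose in males by 3.51 ± 0.19 on the log2 scale (SE, adjusted p = 2.3e-10 in edgeR), the 1 of 5 erythroid markers that was called. Of the 8 hepatocyte markers, Serpina1a rose by 0.58 ± 0.16 and Alb, which encodes albumin, fell by 0.46 ± 0.12 (SE, adjusted p = 0.0299 and 0.0204 in edgeR). Cidea, the 1 of the 5 markers of brown fat and muscle that could be tested, measured 0 to 3.81 CPM over all libraries and rose in males by 4.10 ± 1.05 (log2, SE, adjusted p = 0.0207 in edgeR). The lists of Kupffer, sinusoidal endothelial, stellate, bile duct, neutrophil, T and NK, and B and plasma cell markers had 0 called, with medians between -1.11 for neutrophil markers and -0.23 for T and NK cell markers, and all 6 stellate and all 6 Kupffer cell markers were below 0. Between genotypes 0 markers were called, but list medians moved there too. In Dp16-2xIFNRs against wild-type livers they were 2.03 for erythroid, 1.80 for neutrophil, 0.97 for B and plasma, and 0.91 for T and NK cell markers. The hepatocyte median was 0.13, and the Kupffer, sinusoidal endothelial and bile duct medians were below 0. In Dp16 against wild-type livers the erythroid and neutrophil medians were 1.40 and 1.52. Sinusoidal endothelial markers had -0.56 in Dp16-2xIFNRs against Dp16 livers. The part of these markers in the values of the mitochondrial genes was not tested.

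mt-Tt measured 1.26 to 4.30 CPM in males (median 1.97) and 0.437 to 2.34 CPM in females (median 1.197). The sexes overlap, and the log2 fold change was 0.93 ± 0.29 (SE) with an adjusted p of 0.0664 in edgeR. DESeq2 called this gene, at 0.94 and an adjusted p of 0.0233, and so did edgeR without Dp16 library 6, at 1.07 and an adjusted p of 0.0473. mt-Nd2 measured 6002 to 16210 CPM in males (median 9986) and 5328 to 10530 CPM in females (median 8416), with a log2 fold change of 0.42 ± 0.17 (SE) and an adjusted p of 0.160 in edgeR. Without Dp16-2xIFNRs library 3, the male with the lowest values, it was called at 0.52 with an adjusted p of 0.0257. Of the nuclear copies, Gm10222, which matches mt-Nd4l, fell in males, with a log2 fold change of -0.96 ± 0.26 (SE) and an adjusted p of 0.0265 in edgeR, while mt-Nd4l itself had 0.27 ± 0.24.

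The difference between the sexes was not shown to depend on genotype in Dp16-2xIFNRs or in Dp16 against wild-type livers. Whether it differs between Dp16-2xIFNRs and Dp16 livers was not tested. In the fit with terms for sex by genotype, 0 of 22 genes were called in both contrasts, against 0% of all genes, and 0 of 22 had an unadjusted p under 0.05 in edgeR, against 2.24% of all genes for Dp16-2xIFNRs and 7.88% for Dp16. The rRNAs had the smallest p: mt-Rnr1 differed by 1.501 ± 0.73 on the log2 scale between the male effect in Dp16 and that in wild-type livers (SE, unadjusted p = 0.0555, adjusted p = 0.582 in edgeR). In Dp16 livers mt-Rnr1 measured 1138, 3006 and 3134 CPM in males and 387, 973 and 1589 CPM in females. In wild-type livers it measured 918, 1376 and 1784 CPM in males and 719, 1766 and 2190 CPM in females, so the sexes overlapped in both genotypes.

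The nuclear subunits of the same complexes were mostly above 0 where the mitochondrial genes were, and none passed the test between genotypes. In Dp16-2xIFNRs against Dp16 livers, 36 of 37 nuclear genes of complex I, all 9 of complex III, all 12 of complex IV and all 18 of complex V had a log2 fold change above 0, with medians of 0.39, 0.38, 0.35 and 0.38. At an unadjusted p under 0.05 there were 2 of complex I, Ndufs3 and Ndufa13, 1 of complex IV, Cox8a, and 1 of complex V, Atp5d, against 9.32% of all genes, none with an adjusted p below 0.532 in edgeR. In Dp16 against wild-type livers, 1 of 37, 1 of 9, 2 of 12 and 3 of 18 were above 0, with medians of -0.15, -0.18, -0.07 and -0.10. In Dp16-2xIFNRs against wild-type livers, 35 of 37, 9 of 9, 12 of 12 and 16 of 18 were above 0, with medians between 0.23 and 0.29. These comparisons share libraries, so their values are not independent. The levels spread widely within Dp16, where the 12 nuclear genes of complex IV summed to 1131 to 7091 CPM, against 3114 to 5033 CPM in Dp16-2xIFNRs and 1856 to 4329 CPM in wild-type livers. Of the 76 nuclear genes of complexes I, III, IV and V, 73 were lowest among the Dp16 libraries in library 5, which has the scaling factor of 1.34 and the high Neat1, and 72 were highest in library 4, which has the factor of 0.803.

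These values were computed again without Dp16 libraries 4 and 5, a choice made after seeing the data. Both libraries are extremes of these same genes, so leaving them out narrows the spread within Dp16 by construction. The p values of this fit therefore cannot be read as support. In Dp16-2xIFNRs against Dp16 livers the medians were then 0.57, 0.57, 0.60 and 0.57 for complexes I, III, IV and V. None of these genes was called, and neither was any other gene. In Dp16 against wild-type livers the medians were -0.28, -0.31, -0.31 and -0.26, so both shifts were larger without these libraries. In Dp16-2xIFNRs against wild-type livers Atp5j, of the duplicated segment, was then called, with a log2 fold change of 0.93 ± 0.20 (SE) and an adjusted p of 0.0488 in edgeR, 1 of the 76 genes, against 0.407% of all genes. Of the hepatocyte markers, over all libraries, Serpina1a had a log2 fold change of 0.45 and Apoa1, a secreted apolipoprotein, of 0.53 in Dp16-2xIFNRs against Dp16 livers (unadjusted p = 0.0283 and 0.0419, adjusted p = 0.532 in edgeR). Both were lowest among the Dp16 libraries in library 5 and highest in library 4, and their part in the values of the subunits was not tested.

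The duplicated segment itself holds nuclear genes of mitochondrial proteins. All 5 that were listed, the ATP synthase subunits Atp5j and Atp5o, the mitochondrial ribosomal proteins Mrpl39 and Mrps6, and Gabpa, a transcription factor of respiratory genes, had a log2 fold change above 0 in both groups with the duplication against wild-type livers. The median was 0.84 in Dp16-2xIFNRs and 0.51 in Dp16 livers. Mrpl39 had 0.49 ± 0.12 in Dp16-2xIFNRs and 0.40 ± 0.12 in Dp16 livers (SE), with adjusted p values of 0.167 and 0.518 in edgeR. Atp5j had 0.92 ± 0.29 and 0.51 ± 0.29 (SE), with adjusted p values of 0.354 and 0.999 in edgeR. Over all libraries 0 of the 5 were called in either comparison, against 0.0986% and 0.0395% of all genes.

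Nuclear genes that act on mitochondrial DNA and RNA gave no call between genotypes either. Among 23 tested genes of mitochondrial transcription and replication, the unadjusted p was under 0.05 for 2 genes in each comparison, and among 39 of RNA processing, stability and decay it was for 3, 3 and 0 in Dp16-2xIFNRs against Dp16, Dp16-2xIFNRs against wild-type and Dp16 against wild-type livers. Over all genes the shares were 9.32%, 8.66% and 4.87% in the same order. Of 20 regulators of mitochondrial biogenesis, 5 were above 0 in Dp16-2xIFNRs against Dp16 livers, with a median log2 fold change of -0.37. Ppargc1a, the coactivator that promotes mitochondrial biogenesis, had -0.79 ± 0.24 in that comparison and 0.79 ± 0.24 in Dp16 against wild-type livers (SE), with adjusted p values of 0.532 and 0.498 in edgeR.

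Between males and females some of these nuclear genes were called. In the RNA processing list 4 of 39 rose in males and none fell, against 3.41% and 3.16% of all genes: Rpusd3, of the pseudouridine synthase family, Rexo2, which degrades short RNAs, Pde12, which removes poly-A tails, and Hsd17b10, a subunit of the enzyme that cuts the 5' ends of tRNAs. Rpusd3 had a log2 fold change of 0.77 ± 0.11 (SE) with an adjusted p of 5.1e-05, and Hsd17b10 of 0.98 ± 0.23 with an adjusted p of 0.0105 in edgeR. In the transcription and replication list Polg2, the accessory subunit of the mitochondrial DNA polymerase, and Slc25a33, a carrier of pyrimidine nucleotides, rose in males by 0.53 ± 0.14 and 0.91 ± 0.25 on the log2 scale, and Top1mt, the mitochondrial topoisomerase, fell by 0.56 ± 0.14 (SE, adjusted p = 0.0257, 0.0325 and 0.0214 in edgeR). Of the regulators, Esrrg and Ppargc1a fell in males by 1.97 ± 0.52 and 0.67 ± 0.20 on the log2 scale (SE, adjusted p = 0.0246 and 0.0446 in edgeR). Called genes were 2 higher and 1 lower of 23 in the transcription and replication list, and 0 higher and 2 lower of 20 regulators. Over all genes, 3.41% were called higher and 3.16% lower. The nuclear subunits of complexes I, III and IV were all above 0 in males against females, with medians of 0.38, 0.39 and 0.41. Of complex V, 17 of 18 were above 0, with a median of 0.40. None of the nuclear subunits of these complexes was called, against 6.56% of all genes.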

How the data were processed

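The authors deposited whole-number counts per gene for 18 polyadenylated-RNA libraries and a table of RPKM, which was found to be the same counts scaled to column total and gene length. Per the submitters' processing notes the tools were HISAT2 2.1.0, HTSeq 0.6.1, SAMtools 1.5, FastQC 0.11.5 and bcl2fastq, with build GRCm38. Per the labels' protocols the kit keeps strand, while the sources used here do not say with which strand option HTSeq ran or how reads with several matches were handled. Coordinates and sequences came from GENCODE M21 of that build, and nuclear copies were found by matching its transcripts.

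Genes were kept with filterByExpr (15208 of 55385), scaled with TMM and tested with edgeR 4.0.16 (R 4.3.3, quasi-likelihood, robust) on all libraries, with genotype and sex as terms and Benjamini-Hochberg adjustment over all genes, called under 0.05. The fit was tested on simulated data. Ratios were tested by exact permutation over the 6 + 6 libraries. Alternatives were DESeq2 1.42.0, limma-voom (limma 3.58.1), other filters, scalings and terms, limma on log2 RPKM with 0.1 or 1 added, each sex alone and each library left out. Medians, sums and shares over the genes have no test. The labels do not state that each library is a separate animal; if some are not, the p-values measure technical spread in part. The descriptions of 11 of the 18 libraries hold a number that another library also has, and its meaning is not stated; with it as a random block, 0 mitochondrial genes were called between genotypes. In lists, named genes are those called, up to 4, or otherwise those with the smallest p. The members and the lists were chosen with earlier results of these data known.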

Additional observations from a re-analysis of the deposited data

Results flagged for a closer look

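Of 81 sets of 6 libraries of 1 genotype that were checked for a library far from the other 5, 6 had one (7.41%), where chance gives about 1 in 20. Of these, 4 came from Dp16-2xIFNRs library 5, a male. mt-Rnr1 measured 3971 CPM there, against 1331 to 2282 in the other 5 libraries of the genotype, and mt-Rnr2 measured 4134 CPM, against 1526 to 2466. mt-Ti measured 9.10 CPM in that library, against 1.39 to 3.70, and mt-Co3 measured 438 CPM, against 85.2 to 160. mt-Co3 also measured 425 CPM in Dp16 library 4, against 66.7 to 166 in the other 5 Dp16 libraries. mt-Atp8 measured 26.1 CPM in wild-type library 2, against 8.12 to 12.4 in the other 5.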

How the results depend on the processing

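The count of called mitochondrial genes stayed at 0 in each comparison of genotypes under all 36 alternatives, 18 of which left out 1 library each. In males against females, where no gene was called, DESeq2 called 1 and the fit with the replicate block called 1, mt-Tt in both. Leaving out 1 library gave 0 to 1 called genes there. Of 18 same-numbered pairs of samples, 5 correlated above 0.1 (range -0.38 to 0.26), which cannot exclude that the numbers pair the samples. The replicate block changed no other call. With genotypes permuted within sex, the rRNA ratio passed for Dp16-2xIFNRs (-0.20) and Dp16 (-0.21) against wild-type, at an adjusted p of 0.045. Over all alternatives of both differences the adjusted p ran from 0.045 to 0.331, the sign-flip over same-numbered pairs giving 0.188. Of 4138 values for single genes under alternatives, 4042 moved by less than 1 SE, 92 moved by more and 4 became calls. Of the 132 gene and comparison pairs, none of them called, 66 took both signs over the alternatives, such as mt-Co3 in Dp16 against wild-type livers, from -1.18 to 0.60. The cause of these changes was not tested. The 15 tRNA genes that were not tested were below the filter on low counts, and mt-Td and mt-Te had the widest intervals.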
